A study of Mus musculus with 6 samples.

Results

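Regions lying 2000 bp or more downstream of a gene's start were examined for TEAD4 binding by chromatin immunoprecipitation on promoter arrays (ChIP-chip). The members were the 74342 array probes, of 471870 kept on both array designs, whose annotation names exactly 1 gene symbol at a distance of 2000 or higher from that gene's start. Each such probe was averaged with the other downstream probes of its gene within 500 bp on each side, and 3 or more probes made a window. This gave 57423 downstream windows in 7641 genes, of 417548 windows in 16499 genes in all. Of the 14290 genes with a downstream probe, 6649 had too few within reach to form a window and were not measured there. The other 360125 windows, in 16263 genes, lay upstream of the start or less than 2000 bp downstream of it, and are called elsewhere.

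All samples were C2C12 cells, mouse myoblasts that form myotubes once serum is lowered. The TEAD4 group carried a retroviral vector for Flag-HA-tagged TEAD4 and had 2 samples, labelled as duplicates, and the control group carried the empty vector and had 1 sample. Both groups are puromycin-selected infected populations. In the TEAD4 group the vector, not the cell's own gene, supplied the tagged protein. Both groups were given 5 days of differentiation in 2% horse serum before a 10 min fixation with 0.4% formaldehyde. The anti-Flag precipitate (IP) of each sample was hybridised in Cy5 against its input DNA in Cy3 on 2 array designs, which makes 6 arrays, and the 3 inputs come from the same kind of cells. No expression was measured, so the labelled cell type was not checked against markers, and whether the duplicates are separate cultures is not stated, and their spread may then be only technical.

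TEAD4 belongs to the TEAD family of transcription factors, which bind short DNA elements known from muscle genes as M-CAT elements and recruit the co-activators YAP and TAZ. TEAD proteins are known to bind enhancers as well as promoters, and first introns of genes often hold such regulatory elements. A promoter array reaches past the start only as far as its tiling goes, so downstream windows are a partial view of gene bodies. The median window lay 4002 bp from the start and the farthest 1162352 bp. By the array annotation 92.5% of the downstream probes lay inside the gene and 7.5% past its end, and exons and introns were not told apart.

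The letters of the downstream windows were not analysed here. The sequences before the starts of the same genes were, since for the genes enriched only downstream these are the stretches where TEAD4 was not enriched by the same measure. Below are the 250 bases before the RefSeq start of Lzic and Qk, the 2 downstream-only genes with the highest value in the lower TEAD4 sample, and of the 3 downstream-only genes whose stretch holds the core of the TEAD element, GGAATG or its reverse complement CATTCC, set in capitals. Each is written 5′ to 3′ on the gene's strand from RefSeq, build GRCm38.p6, and the RefSeq start may differ from the start that the array used. The Lzic stretch is chr4:149484979-149485228 (plus strand), the Qk stretch chr17:10319362-10319611 (minus strand), the Nisch stretch chr14:31206827-31207076 (minus strand), the Bcl2l1 stretch chr2:152831729-152831978 (minus strand) and the Pacsin3 stretch chr2:91256563-91256812 (plus strand).
Lzic: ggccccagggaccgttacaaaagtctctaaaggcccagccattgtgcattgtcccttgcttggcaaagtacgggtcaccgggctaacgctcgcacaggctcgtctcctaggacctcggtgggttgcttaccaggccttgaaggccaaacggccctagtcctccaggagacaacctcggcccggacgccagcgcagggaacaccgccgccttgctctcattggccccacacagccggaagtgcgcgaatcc
Qk: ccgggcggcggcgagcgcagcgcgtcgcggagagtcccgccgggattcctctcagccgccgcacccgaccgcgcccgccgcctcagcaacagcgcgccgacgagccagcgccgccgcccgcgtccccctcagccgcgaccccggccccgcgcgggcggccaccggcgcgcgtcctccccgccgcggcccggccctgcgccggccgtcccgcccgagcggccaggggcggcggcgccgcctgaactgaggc
Nisch: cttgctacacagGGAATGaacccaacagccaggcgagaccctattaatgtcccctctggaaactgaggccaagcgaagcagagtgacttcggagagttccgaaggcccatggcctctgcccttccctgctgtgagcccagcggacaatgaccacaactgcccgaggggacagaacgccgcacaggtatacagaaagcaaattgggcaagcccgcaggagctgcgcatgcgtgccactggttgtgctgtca
Bcl2l1: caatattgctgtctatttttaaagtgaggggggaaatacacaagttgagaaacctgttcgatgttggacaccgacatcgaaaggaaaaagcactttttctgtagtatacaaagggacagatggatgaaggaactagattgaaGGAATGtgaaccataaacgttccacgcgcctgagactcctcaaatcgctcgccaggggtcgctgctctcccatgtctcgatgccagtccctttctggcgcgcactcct
Pacsin3: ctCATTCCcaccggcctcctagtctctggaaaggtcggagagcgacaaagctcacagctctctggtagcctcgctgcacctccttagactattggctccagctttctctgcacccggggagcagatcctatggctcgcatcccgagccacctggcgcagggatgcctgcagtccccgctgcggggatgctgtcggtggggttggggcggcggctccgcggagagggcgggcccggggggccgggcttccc
The core was absent from the Lzic and Qk stretches and occurred 1 time in each of the other 3. It occurred in 3 of the 36 downstream-only genes with a RefSeq stretch (8.33%) and in 12.6% of all 27025 stretches. Among genes enriched elsewhere and not called downstream it occurred in 99 of 642 (15.4%). Unlike the downstream-only genes, that group did not need a window on each side, so it includes genes not measured downstream. The E-box CANNTG, the element of myogenic bHLH factors, occurred in 75% of the 36, in 57.6% of that group and in 66.1% of all. The AP-1 element TGANTCA occurred in 5.56%, 5.76% and 6.85%. Among the 6056 stretches of genes with a downstream window, the core occurred in 11.5%, the E-box in 57.7% and the AP-1 element in 5.5%. Both strands were searched, and these shares are descriptions of the letters.

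TEAD4 enrichment over input was weaker downstream than close to the start, and was similarly low more than 2 kb upstream. The mean log2 of IP over input, centred on each array's median, was -0.08 in TEAD4 sample 1, -0.03 in TEAD4 sample 2 and 0.25 in the control over downstream windows, against 0.17, 0.17 and 1.17 in windows within 0.5 kb of the start. Both TEAD4 samples were at least 2-fold over input in 0.464% of windows at 2 to 3 kb, in 0.359% at 3 to 10 kb and in 0.246% at 10 kb or more. The shares were 0.984% within 0.5 kb of the start and 0.861% at 0.5 to 2 kb. More than 2 kb upstream the share was 0.44%, with means of -0.12 and -0.06 in TEAD4 samples 1 and 2. When both TEAD4 samples also had to exceed the control by 2-fold or more, the share at 2 to 3 kb was 0.326%, against 0.35% at 0.5 to 2 kb and 0.219% within 0.5 kb of the start. By that measure the share was 0.188% at 3 to 10 kb, 0.126% at 10 kb or more and 0.217% more than 2 kb upstream. The windows at 2 to 3 kb thus did not lie below those within 0.5 kb of the start by that measure. Windows of one array are not replicates, so these shares carry no test.

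**Figure D1:**
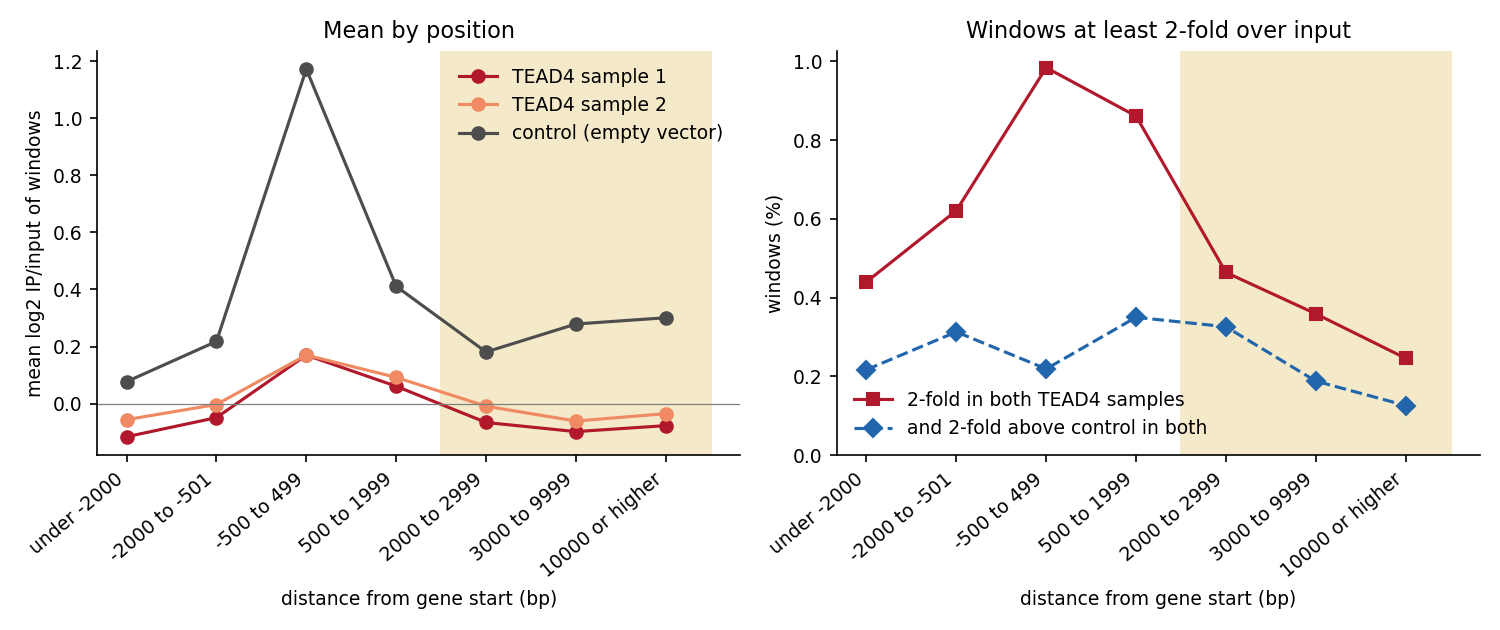
Left, mean log2 IP/input of windows by distance from the gene start (bp) in each of the 3 samples. Right, percentage of windows at least 2-fold over input in both TEAD4 samples, and of those that also exceeded the control by 2-fold or more. The shaded bins are the downstream windows. TEAD4 means fall to between -0.10 and -0.01 there, and the share enriched over input falls to 0.246% in the last bin.

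The control spread widely. IP signal over local background was 3.63 to 5.41 on the TEAD4 arrays and 1.84 and 2.04 on the control arrays, where the input signal was higher. The duplicates had SDs of 0.35 and 0.37 log2 units over downstream windows and the control one of 0.97, and 0.639% and 1.52% of downstream windows reached 2-fold over input in the duplicates, against 21.2% in the control. Across downstream windows Pearson's r was 0.46 between the TEAD4 samples, and 0.23 and 0.13 between each of them and the control, as a description over windows that share arrays. With 2 samples against 1, an exact permutation test cannot give a p below 0.333.

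Both TEAD4 samples were 2-fold or more over input in at least 1 downstream window of 62 of the 7641 genes (0.811%), and in at least 1 window elsewhere of 800 of 16263 genes (4.92%). The difference between these shares was not tested, and a gene has fewer windows downstream. The 62 genes held 210 such windows in 64 separate stretches. In 13 genes a window elsewhere was enriched too, 7 genes had no window elsewhere, and 42 genes were enriched only downstream. These 42 were 0.567% of the 7405 genes with windows on both sides. In limma all 62 genes were higher over input downstream at an adjusted p below 0.05, against 15.9% of all gene sides tested, a count that follows from the size rule.

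**Figure D2:**
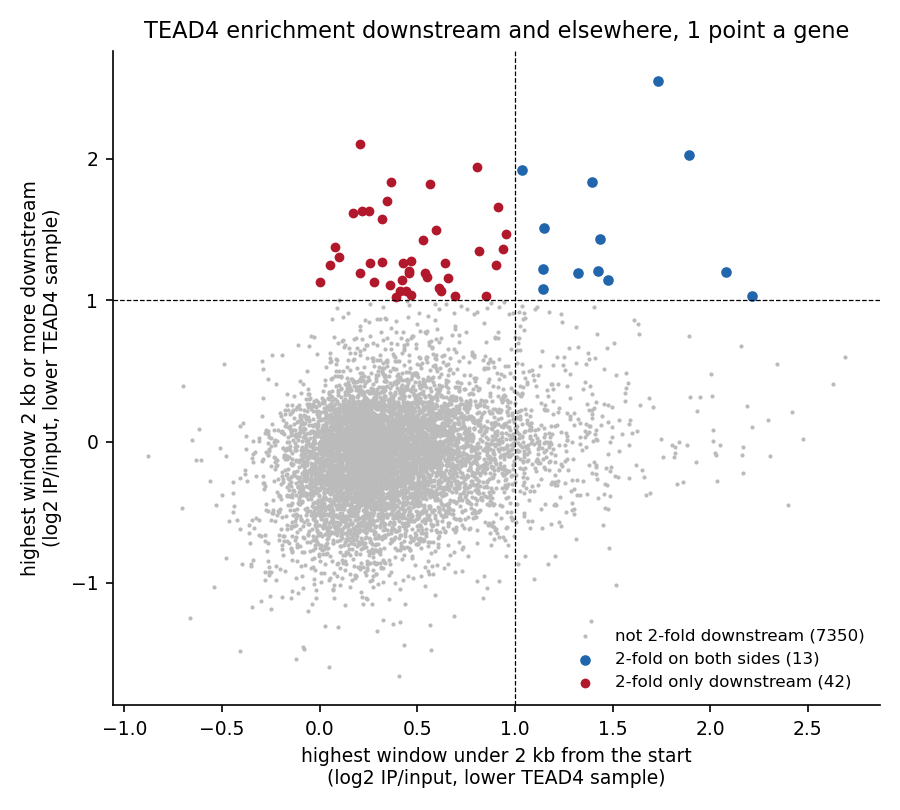
Each point is 1 of 7405 genes. The horizontal axis gives the highest window elsewhere and the vertical axis the highest downstream window, each as log2 IP/input in the lower of the 2 TEAD4 samples. Dashed lines mark 2-fold. The 42 genes at upper left are enriched only downstream, the 13 at upper right on both sides.

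The 42 genes shared no one type of product. Their top windows had a median of 1.48 log2 units (range 1.06 to 2.44) as the mean of the TEAD4 samples and of -0.13 (range -1.63 to 3.39) in the control. Both TEAD4 samples were above the control in 39 of the 42 top windows, against 40.9% of all genes with a downstream window, and both were at least 2-fold above it in 30, against 7.45%. The windows were picked for high TEAD4 values in both counts. The top window lay at 2 to 3 kb in 23 genes, at 3 to 10 kb in 13 and at 10 kb or more in 6. In 11 genes every probe of the top window was at least 2-fold over input in both duplicates, in 41 every probe was above 0, and in 7 at most 1 probe reached 2-fold in both, so that the window mean rests on few spots there.

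**Figure D3:**
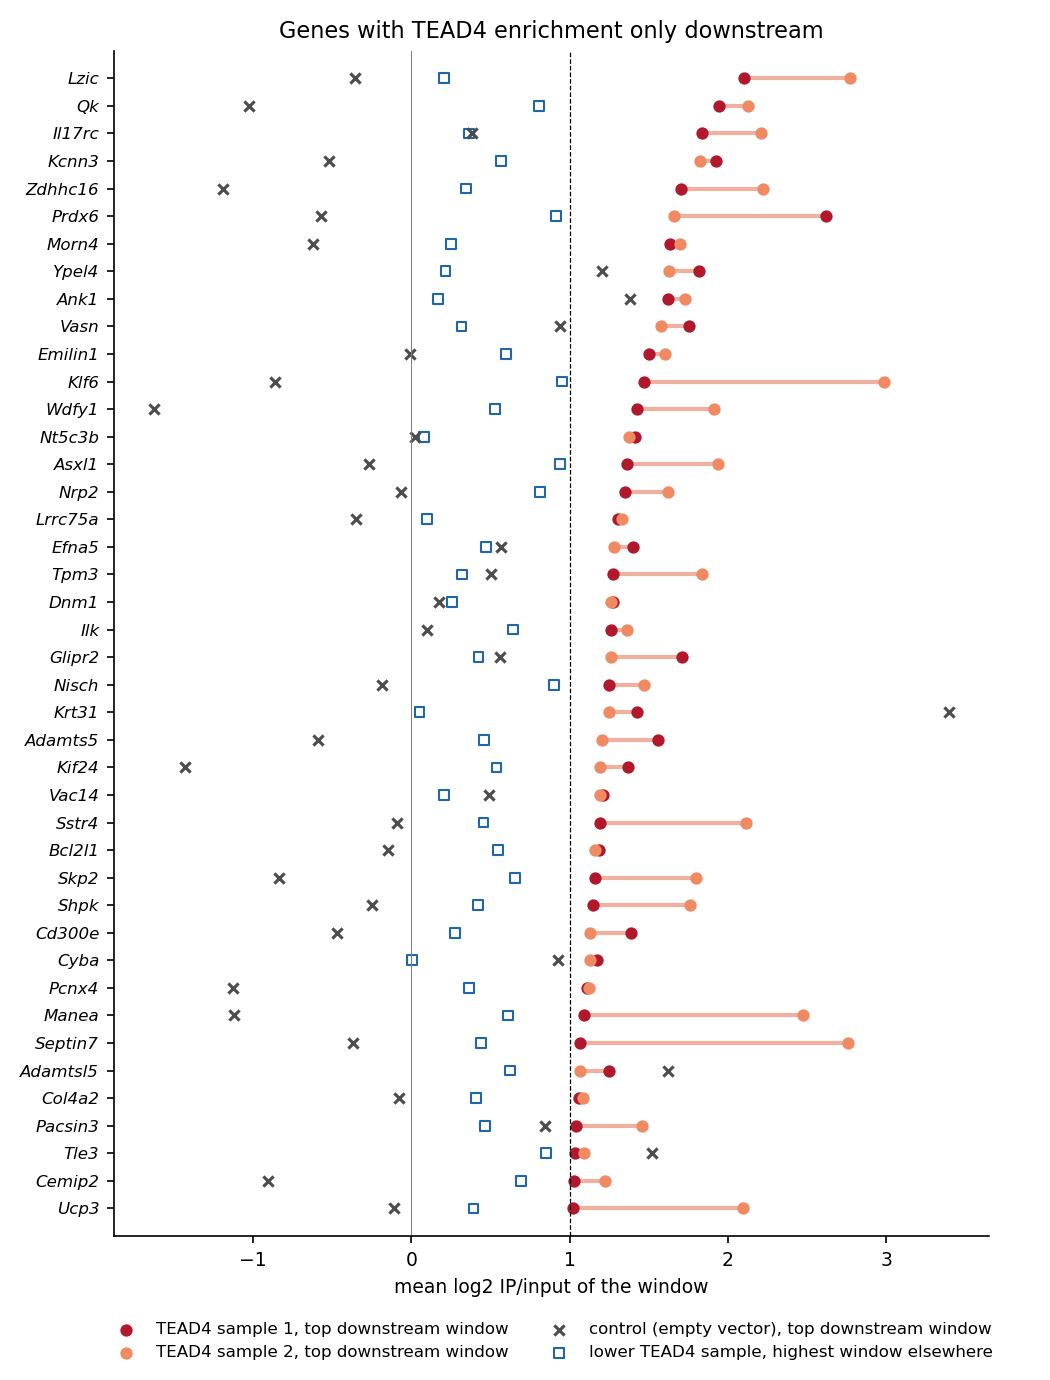
The 42 genes enriched only downstream, from the strongest at the top. Filled circles give the log2 IP/input of each TEAD4 sample in the top downstream window, joined by a bar, crosses the control in the same window, and open squares the lower TEAD4 sample in the gene's highest window elsewhere. All circles lie at 1 or higher and all squares below 1, and the Krt31 cross lies at 3.39.

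By the lower TEAD4 sample the strongest downstream-only enrichment was in Lzic, which encodes a small leucine zipper protein. Its top window, chr4:148331464-148331976 at 2814 bp, held 4 probes and measured 2.10 and 2.77 in TEAD4 samples 1 and 2, against -0.35 in the control. The mean of the TEAD4 samples was 2.44 ± 0.47 (SD, n = 2), or 5.42-fold over input (limma adjusted p = 2.7e-05), and the highest window elsewhere reached only 0.21 in the lower TEAD4 sample. Lzic was picked by these same values, so its p adds no independent evidence. Over all 10 downstream probes the gene exceeded its 9 other probes by 0.95 and 1.11 in the TEAD4 samples, against -1.04 in the control. In this gene the TEAD4 samples and the control moved in opposite directions past the start.

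Among genes for regulators of RNA and transcription, Qk, the RNA-binding protein Quaking that directs splicing in muscle cells, had 1.94 and 2.13 in the TEAD4 samples and -1.02 in the control at chr17:10160667-10161176, 2065 bp from the start. Its windows nearer the start reached 0.81, below the 2-fold threshold of 1. Klf6, a zinc finger factor, had 1.47 and 2.99 in the TEAD4 samples and -0.86 in the control at 2041 bp, so its duplicates lay far apart, and its highest window elsewhere reached 0.95. Asxl1, a Polycomb-associated chromatin protein, had 1.36 and 1.94 in the TEAD4 samples and -0.26 in the control, with 0.94 elsewhere. Tle3, a Groucho-type co-repressor, had 1.03 and 1.09 in the TEAD4 samples but 1.52 in the control. In Klf6 and Asxl1 the call as downstream-only thus rests on a value elsewhere that lay just under the threshold in the lower TEAD4 sample.

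Several genes encode parts of the matrix, the adhesion machinery or the cytoskeleton. Ilk, integrin-linked kinase, had 1.26 and 1.36 in the TEAD4 samples and 0.10 in the control, in a window for which the array also lists an accession of Taf10. Emilin1, an elastic fibre glycoprotein, averaged 1.55 ± 0.07 in the TEAD4 samples (SD, n = 2) and -0.01 in the control. Adamts5, an aggrecan-cleaving protease, had 1.56 and 1.20 in the TEAD4 samples and -0.59 in the control. In these 3 windows both duplicates were above the control, and in Ilk and Emilin1 they were close in size. Over all 29 downstream probes of Emilin1 the control was higher, at 1.227, against 0.185 and 0.284 in the TEAD4 samples. Over those of Ilk and of Adamts5 the control stayed below both TEAD4 samples. Vasn, a TGF-beta-binding membrane protein, had 1.76 and 1.58 in the TEAD4 samples and 0.94 in the control, in a window also listed under Coro7.

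Ank1, the ankyrin that links membrane proteins to spectrin and has a muscle form at the sarcoplasmic reticulum, had its top window at chr8:24612177-24612617, 88595 bp downstream. It measured 1.62 and 1.73 in the TEAD4 samples, but 1.38 in the control. Krt31, a hair keratin, had 1.42 and 1.25 in the TEAD4 samples and 3.39 in the control, the widest excess of the control over TEAD4 among the 42. Dnm1, the dynamin of endocytosis, had 1.28 and 1.26 in the TEAD4 samples and 0.18 in the control at 37452 bp. Kif24, a kinesin, had 1.37 and 1.20 in the TEAD4 samples and -1.43 in the control. In these top windows TEAD4 thus exceeded the control in Dnm1 and Kif24, hardly in Ank1 and not in Krt31. Over all downstream probes of Dnm1 the control was higher, at 1.31, against 0.35 and 0.01 in the TEAD4 samples. Over those of Kif24 the control was lower, at -0.88, against 0.68 and 0.44 in the TEAD4 samples.

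Tpm3, which encodes slow-muscle and cytoplasmic tropomyosins from alternative starts, was the 1 sarcomere gene of the lists that was enriched only downstream. The top window at chr3:90166754-90167577, 8562 bp from the annotated start, measured 1.27 and 1.84 in the TEAD4 samples and 0.50 in the control. It lay 1568 bp past the start of another transcript in the array annotation. Over all 26 downstream probes the gene exceeded its 38 other probes by 0.68 and 0.80 in the TEAD4 samples, against -0.01 in the control (limma adjusted p = 0.0291 for the TEAD4 mean). Tpm3 was picked by the same TEAD4 values, so its p adds no independent evidence. With normexp background correction no gene passed this test.

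Genes for channels, receptors and their ligands formed another group. Il17rc, a subunit of the interleukin-17 receptor, had 1.84 and 2.21 in the TEAD4 samples and 0.38 in the control at chr6:113446417-113447155, 9541 bp downstream, in a run of 4 probes with windows of low values on either side. Kcnn3, a small-conductance calcium-activated potassium channel, had 1.92 and 1.82 in the TEAD4 samples and -0.52 in the control at chr3:89608397-89608859, 2074 bp from the start. In both top windows the TEAD4 samples were above the control, with an SD of 0.26 in Il17rc and 0.07 in Kcnn3 (n = 2). Over all 22 downstream probes of Il17rc, however, the control was higher, at 1.12, against 0.27 and 0.37 in the TEAD4 samples. Nrp2, a co-receptor for semaphorins and VEGF, had 1.35 and 1.62 in the TEAD4 samples and -0.06 in the control. A window elsewhere at 1820 bp had 0.81 and 1.67 in the TEAD4 samples, so TEAD4 sample 2 was no higher downstream. Efna5, an ephrin ligand, had 1.40 and 1.28 in the TEAD4 samples and 0.57 in the control at 190208 bp, the most distant of the 42. Nisch, the imidazoline-binding protein nischarin, had 1.25 and 1.47 in the TEAD4 samples and -0.18 in the control at 18033 bp, with 0.90 elsewhere in the lower TEAD4 sample. For Sstr4, a somatostatin receptor, the samples disagreed in size, with 1.19 and 2.12 for TEAD4 and -0.09 for the control, and the window lies past the gene's end and is also listed under Thbd.

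Genes of metabolism, redox balance and protein modification included Prdx6, a peroxiredoxin, with 2.62 and 1.66 in the TEAD4 samples and -0.57 in the control at chr1:163085400-163085859. Its window at 1907 bp, before the border, had 0.91 and 1.00 in the TEAD4 samples, just under the threshold in the lower one. Zdhhc16, a palmitoyltransferase, had 1.70 and 2.22 in the TEAD4 samples and -1.19 in the control, in a window also listed under Mms19. Nt5c3b [Nt5c3l], a pyrimidine and 7-methylguanosine nucleotidase, had 1.41 and 1.38 in the TEAD4 samples and 0.02 in the control. In the downstream windows of these 3 genes the control was far below both TEAD4 samples. Of genes for survival and the cell cycle, Bcl2l1, which encodes the anti-apoptotic Bcl-xL, had 1.18 and 1.16 in the TEAD4 samples and -0.15 in the control over 6 probes at 3350 bp. Skp2, the F-box subunit that marks the CDK inhibitor p27 for degradation, had 1.16 and 1.80 in the TEAD4 samples and -0.83 in the control at 5220 bp.

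Wdfy1, a FYVE-domain endosomal protein, had 1.42 and 1.91 in the TEAD4 samples and the lowest control value of the 42, -1.63. Vac14, a scaffold of the lipid kinase Pikfyve, had 1.21 and 1.19 in the TEAD4 samples and 0.49 in the control at 98833 bp. Morn4 [BC023055] had 1.63 and 1.70 in the TEAD4 samples and -0.62 in the control over 5 probes. Ypel4 had 1.82 and 1.63 in the TEAD4 samples and 1.20 in the control, past the end of the gene. In the lower TEAD4 sample the highest windows elsewhere of Morn4 and Ypel4 reached 0.25 and 0.22, under 2-fold as the downstream-only rule required. In these windows elsewhere the control stood at 0.245 and 2.991. Lrrc75a [BC046404] had 1.31 and 1.33 in the TEAD4 samples and -0.35 in the control, and Glipr2 had 1.71 and 1.26 in the TEAD4 samples and 0.56 in the control.

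The other 12 downstream-only genes were Shpk [Carkl], Cd300e, Cyba, Pcnx4 [1810048J11Rik], Manea, Septin7 [Sept7], Adamtsl5, Col4a2, Pacsin3, Tle3, Cemip2 [Tmem2] and Ucp3, with 1.02 to 1.15 in the lower TEAD4 sample. Cemip2 and Ucp3 were named by the rule for genes just inside 2-fold and Septin7 by that for the highest differences. The rest were named after their values were seen. Ucp3, the uncoupling protein of skeletal muscle mitochondria, had 1.02 and 2.09 in the TEAD4 samples and -0.11 in the control. Col4a2, a basement membrane collagen chain, had 1.06 and 1.08 in the TEAD4 samples and -0.08 in the control, while Adamtsl5 had 1.25 and 1.07 in the TEAD4 samples and 1.62 in the control. In Septin7 the duplicates lay 1.07 and 2.76 over input, the widest gap of the 42, with the control at -0.37. Adamtsl5, Tle3 and Krt31 were the 3 downstream-only genes whose top window was no higher with TEAD4 than in the control.

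With normexp background correction 28 of the 42 genes were still enriched only downstream and 14 were not. The lower TEAD4 sample then measured 0.48 in Klf6, 0.68 in Asxl1, 0.63 in Nrp2, 0.68 in Sstr4 and 0.83 in Vac14, and 0.92 to 0.99 in Nisch, Bcl2l1 and Efna5. In Klf6, Asxl1 and Sstr4 the highest window elsewhere was then above the downstream one, at 0.82, 1.08 and 0.77. The other 6 were Cd300e, Cyba, Manea, Pacsin3, Tle3 and Ucp3, with -0.11 in Ucp3 and 0.26 to 0.96 in the rest. In Manea and Ucp3, too, the highest window elsewhere was above the downstream one, at 0.76 and 0.19.

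**Figure D4:**
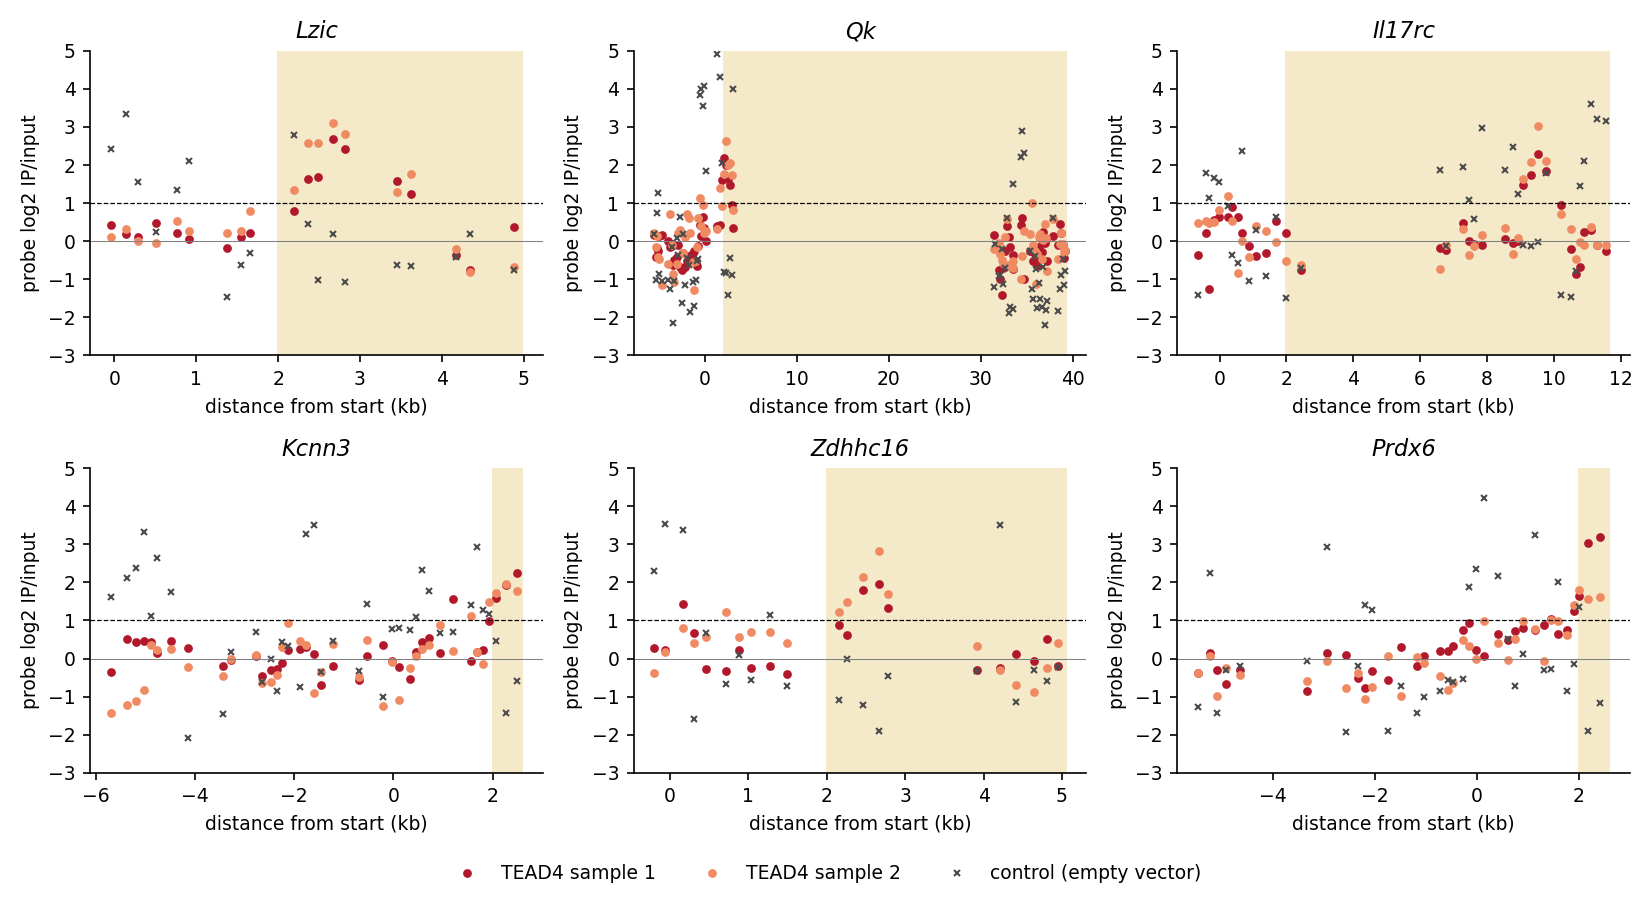
Log2 IP/input of every probe naming the 6 strongest downstream-only genes, by distance from the gene start (kb), in the 3 samples. The shaded area starts at 2 kb and dashed lines mark 2-fold. In Lzic, Il17rc and Zdhhc16 the TEAD4 probes rise and fall again within the tiled stretch, while in Kcnn3 and Prdx6 the tiling stops where the TEAD4 values are highest.

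The tiling limits what was measured. In 12 of the 42 genes, Kcnn3 and Prdx6 among them, just 3 probes lay downstream, so the far side of the enrichment was not covered. All 23 genes with a top window at 2 to 3 kb had a window between 1 kb and 2 kb as well, and in 7 of them the outermost of these was at least 1.5-fold over input in both TEAD4 samples. At least 1.5-fold was reached by some window elsewhere in 13 of the 42. Leaving these out kept 29 genes, and requiring at least 2-fold over the control as well as over input, in any window, kept 32.

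Another annotated transcript start lay within 2000 bp of the centre of 9 of the 42 top windows, against 1387 of all 7641 genes. These 9 genes were Qk, Morn4, Klf6, Tpm3, Ilk, Adamts5, Bcl2l1, Cyba and Adamtsl5. In Klf6 the other start lay 1984 bp from the window centre, close to the gene's annotated start at 2041 bp. It may therefore be the same promoter. With such window centres left out of the downstream side, 35 genes were enriched only downstream, and with windows that also list an accession of another gene left out, 37. Both rules were added after seeing the data. Among all windows at 3000 bp or more, 0.456% were enriched in both TEAD4 samples near another start and 0.256% away from one, with no test.

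The 7 genes enriched downstream without a window elsewhere cannot be placed on either side: no kept probe names them within 2000 bp of the start or farther upstream. One of them was Tead1, the paralogue of TEAD4, with 1.57 and 1.83 in the TEAD4 samples and -0.17 in the control at chr7:112551615-112552305. This window lay 81099 bp past the annotated start and 1249 bp past the start of another transcript. All 5 of its probes were at least 2-fold over input in both TEAD4 samples. Prx, the periaxin of Schwann cell myelin, had 1.89 and 2.07 in the TEAD4 samples and 0.15 in the control. Farp1 had 1.07 and 1.19 in the TEAD4 samples and -0.08 in the control at 212188 bp, the farthest enriched window, though 0.73 in the lower TEAD4 sample with normexp correction, and Plekha5 had 1.09 and 1.01 in the TEAD4 samples and 1.38 in the control at 112120 bp. Another start lay within 2000 bp of the window in Tead1, Prx, Vamp5, Farp1 and Plekha5, and farther away in Slc4a4 and Usp54.

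Of the 13 genes enriched on both sides, S100a11, a calcium-binding protein, had the highest downstream window of all, with 2.99 and 2.55 in the TEAD4 samples and 0.06 in the control at chr3:93608024-93608435. Its highest window elsewhere reached 1.73 in the lower TEAD4 sample. Ifit2, an interferon-induced gene, had 2.03 and 2.54 in the TEAD4 samples and -0.05 in the control, but 0.98 in the lower TEAD4 sample with normexp correction. Its last window before the border, at 1879 bp, measured 1.89 and 2.16, so the enrichment ran across it. Myl12a [2900073G15Rik], a regulatory light chain of non-muscle myosin, had 1.92 and 2.60 in the TEAD4 samples and -0.60 in the control at 8737 bp, in a stretch apart from its start. Slc12a9 had 1.83 and 2.02 in the TEAD4 samples and 0.68 in the control at 18920 bp, and Fads3, a fatty acid desaturase, had 1.84 and 1.51 in the TEAD4 samples and 0.84 in the control.

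Just inside the 2-fold rule lay Cemip2 (lower TEAD4 sample 1.03), Ucp3 (1.02) and Plekha5 (1.01), and just outside it St6galnac2 (1.00), Tmem134 (0.99) and Prss36 (0.99). The highest downstream windows of the control were at Olah (4.79), Nkx2-1 [Titf1] (4.78) and Pycard (4.72), where the TEAD4 samples averaged -0.11, 0.19 and 0.59. Enrichment in the control thus reached higher values than in either TEAD4 sample, at other genes.

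To set downstream against elsewhere within each gene, the mean over all its downstream probes minus the mean over all its other probes was tested in 7604 genes with 3 or more probes on each side. Downstream was higher in 118 genes (1.55%) and lower in 419 (5.51%) in the TEAD4 samples (limma, adjusted p below 0.05). Over all genes the median difference was -0.12 in the first TEAD4 sample and -0.10 in the second, against -0.38 in the control. Of the 42 downstream-only genes, 20 were higher and none lower, against 1.55% and 5.51% of all genes. The difference was positive in both TEAD4 samples in 38 of them, against 20.5% of all. It was negative in both in Nisch (-0.260 and -0.383), Skp2 (-0.344 and -0.115) and Ilk (-0.231 and -0.152), and in TEAD4 sample 2 in Shpk (-0.009). The 42 genes were chosen by the same TEAD4 values, so these counts add no independent evidence. Among the 12 with 3 downstream probes in all 12 were higher, and among the other 30, 8 were: a narrow enriched stretch among many downstream probes moved the mean little, as in Qk (0.13 and 0.09 in the TEAD4 samples, -0.95 in the control). With normexp background correction no gene passed in either direction, while 366 were higher and 924 lower at an unadjusted p below 0.05.

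**Figure D5:**
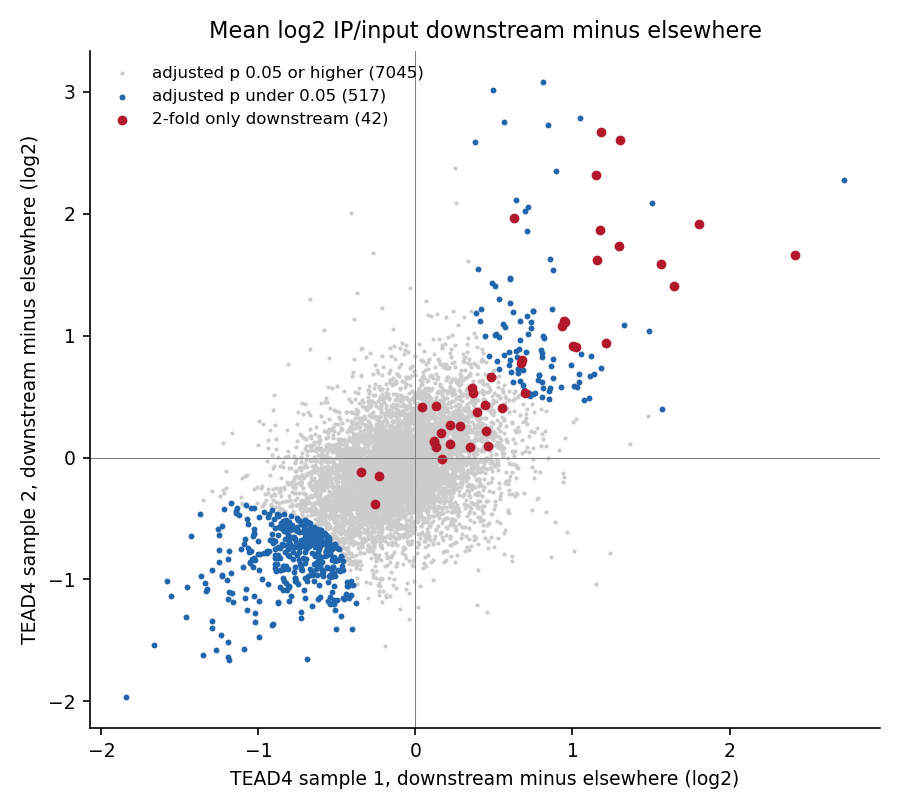
Mean log2 IP/input over downstream probes minus that over all other probes of the gene, in TEAD4 sample 1 (horizontal) and TEAD4 sample 2 (vertical), for 7604 genes. Blue points passed the limma test and red points are the 42 downstream-only genes, of which 38 lie above 0 in both samples.

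The largest excess downstream was in S100a11, by 2.73 and 2.28 in the TEAD4 samples, against -0.06 in the control. Prdx6 followed with 2.42 and 1.66 in the TEAD4 samples, against -0.85 in the control. Klf6, Septin7 and Gja1, the gap junction protein connexin 43, had larger gaps between the duplicates. Gja1 had 0.81 and 3.08 in the TEAD4 samples, against -0.32 in the control, and its downstream mean of 0.77 in TEAD4 sample 1 kept it under the 2-fold rule. Each of these 5 genes had 3 downstream probes. The lowest differences were in Htra2 (-1.84 and -1.97 in the TEAD4 samples, -0.38 in the control), Med31, Shc1, Fto and Cryab. Cryab, a small heat shock protein found at Z-discs, had -0.05 and -0.18 over its 14 downstream probes in the TEAD4 samples but 1.22 and 1.39 over its 14 probes elsewhere. The control stood at 0.00 downstream and 0.86 elsewhere.

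Lists of genes for muscle, for TEAD targets and for other cell types gave few downstream calls. One of 29 YAP-responsive genes with a downstream window was enriched there (Tead1, which is on the myogenic list too), against 13 of 41 with windows elsewhere. Of 23 sarcomere genes 1 was enriched downstream (Tpm3), against 9 of 44 elsewhere, and of 18 myogenic regulators 1 (Tead1), against 9 of 34. None was enriched downstream among 20 excitation-contraction and muscle metabolism genes, 25 unfolded protein response genes, 18 cell cycle genes and 45 ribosomal protein genes, against 8, 5, 5 and 6 elsewhere. The lists of other cell types had none among 8 liver, 18 neuronal, 13 haematopoietic and 152 olfactory receptor genes. The share called over all genes was 0.811% downstream and 4.92% elsewhere, so 1 call among 18 to 29 genes is too few to read.

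In the limma test over input, which uses any downstream window of a gene, 446 genes were higher (5.84%) and 622 lower (8.14%), beside 15.9% and 7.68% of all gene sides. The balance changed with the background correction: normexp gave 277 higher and 39 lower. Among the lists, 9 of 29 YAP-responsive genes, 4 of 23 sarcomere genes, 4 of 20 excitation-contraction genes and 3 of 18 myogenic regulators were higher downstream. So were 3 of 18 neuronal genes, 2 of 18 cell cycle genes, 2 of 45 ribosomal protein genes, 1 of 13 haematopoietic and 1 of 152 olfactory receptor genes, and no unfolded protein response or liver gene. The share among neuronal genes was thus that among myogenic regulators. The median of the top downstream window in the lower TEAD4 sample was 0.14 for YAP-responsive genes, 0.11 for sarcomere genes, 0.13 for excitation-contraction genes and -0.01 for myogenic regulators. It was 0.12 for neuronal, 0.09 for haematopoietic, 0.04 for cell cycle, -0.06 for ribosomal protein, -0.10 for unfolded protein response, -0.30 for liver and -0.47 for olfactory receptor genes, beside -0.08 over all genes. The neuronal list, of another cell type, thus lay within the range of the muscle lists. In the same windows the control's medians ran from -0.57 for olfactory receptor genes to 0.79 for excitation-contraction genes, beside 0.13 over all genes, with 0.62 for neuronal and 0.12 for YAP-responsive genes.

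In the test of downstream against elsewhere 11 members of the 3 muscle lists passed (limma, adjusted p below 0.05). With normexp background correction no gene passed this test. Those of the 11 not met so far are named after their values were seen. Of 23 sarcomere genes 3 were higher downstream and 3 lower, of 19 excitation-contraction genes 2 and 1, and of 17 myogenic regulators 1 and 1, beside 1.55% and 5.51% of all genes. Besides Tpm3, higher were Casq2, the calcium buffer calsequestrin (TEAD4 mean difference 1.38, against -0.41 in the control), Six4, a homeobox factor (0.98 in TEAD4, -0.44 in the control), and Phka1, a subunit of phosphorylase kinase (0.96 in TEAD4, 0.38 in the control). In the top downstream window the TEAD4 duplicates lay far apart in Casq2 (0.793 and 2.433) and in Six4 (1.555 and 0.339). Tpm1, an alpha-tropomyosin, had 0.93 in TEAD4, against -1.44 in the control, and Mybph, a myosin-binding protein, 0.76 in TEAD4, against 0.55 in the control. Besides Cryab, lower were Mylpf, the fast myosin regulatory light chain (-0.84 in TEAD4, -0.50 in the control), Cavin4, a caveolar protein of muscle (-0.70 in TEAD4, -0.53 in the control), Yap1, the TEAD co-activator YAP (-0.65 in TEAD4, -1.80 in the control), and Chrng, the embryonic acetylcholine receptor subunit (-0.71 in TEAD4, 0.39 in the control). Of 27 YAP-responsive genes none was higher and 2 were lower, Ankrd2, a muscle ankyrin repeat protein (-1.10 in TEAD4, 0.00 in the control), and Trip6, an adhesion protein (-1.11 in TEAD4, -0.26 in the control). In the lower TEAD4 sample, Ankrd2 and Chrng reached 0.41 and 0.26 downstream, against 2.63 and 2.19 elsewhere.

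Against the control, 1521 genes had a downstream window higher with TEAD4 (19.9%) and 3139 lower (41.1%) at a limma adjusted p below 0.05, beside 14.9% and 65.9% of all gene sides. This split depended on how the arrays were put on one scale: the authors' uncentred ratios gave 3756 higher and 1632 lower, and a common spread for all arrays gave 25 higher and 19 lower. These adjusted p-values lend the lone control the spread of the TEAD4 duplicates, although its own downstream windows varied more widely, and the p of a gene may come from another window than the enriched one. No count of the 42 downstream-only genes against the control is therefore taken from this fit.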

How the data were processed

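IP and input DNA were measured in 2 TEAD4 samples and 1 control on 2 Agilent designs. Per the file headers, the authors' intensities come from Agilent Feature Extraction 9.5.3.1, and the processed signals are background-subtracted and dye-normalized. Extended dynamic range was used in extraction for the control arrays alone. The log10 ratios deposited by the authors equal the series matrix values. No genome build of the probe positions was given in the sources used here: they are printed as the files give them. Control spots, probes without a position and non-uniform spots were left out. From the processed signals, log2 of IP over input was taken and centred on each array's median. The number of arrays limits the precision.

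Windows were tested with limma 3.58.1 in R 4.3.3, with a Simes p per gene side and Benjamini-Hochberg adjustment over all 23904 gene sides. The test has 1 residual degree of freedom and leans on a variance pooled over windows. On simulated data, with 100 genes raised 2-fold among 7641 with a downstream window, 100% were recovered over input, and 98% in the test of downstream minus elsewhere. Of unaltered genes, 0.43% and 0.027% were called. The simulation gave all 3 samples the spread of the TEAD4 duplicates and raised every downstream probe of a raised gene. In the data the control had an SD of 0.97 over downstream windows, against 0.35 and 0.37, and enriched stretches could be narrow. These simulated shares therefore do not carry over to the data. Array symbols were updated through a RefSeq table of GRCm38.p6, 16365 of 16839 by accession, 280 by symbol and 134 by synonym, and 60 were left as in the files. Where the array has another symbol, it stands in brackets.

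Named by rule were up to 30 downstream-only genes, called list members, 5 genes enriched on both sides, 3 genes inside and 3 outside the 2-fold rule, 3 highest control windows, 5 highest and 5 lowest differences and the 3 farthest windows. The members, lists and rules were chosen with earlier results of these data known. Probe sequences were not used here, so the motif content of the windows was not examined. Alternatives covered background correction, normalization, window width, probe number, distance and left-out samples.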

Additional observations from a re-analysis of the deposited data

How the results depend on the processing

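The counts of genes enriched downstream (62) and only downstream (42) changed by at most 1.5 times with normexp correction (47 and 36), loess (65 and 43), uncentred ratios (63 and 44), 1000 bp windows (47 and 34), 250 bp windows (67 and 51) and dim input probes left out (62 and 42). Of the 42 genes, 28 remained with normexp, 37 with loess and 42 with uncentred ratios. They moved to 187 and 108 with a common spread, to 39 and 26 with at least 4 probes, to 30 and 18 from 3000 bp on, to 250 and 127 at 1.5-fold and to 15 and 11 at 3-fold. Averaging all probes within reach gave 103 enriched genes. Either TEAD4 sample alone gave 108 to 254 enriched genes and 69 to 159 only downstream: 254 and 159 without TEAD4 sample 1, 108 and 69 without TEAD4 sample 2.

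Genes higher over input downstream numbered 446 and became 277 with normexp, 676 with loess, 297 with 250 bp windows, 264 with 4 probes, 671 with all probes and 143 from 3000 bp on. Lower ones (622) became 39 with normexp, 332 with 250 bp windows and 331 from 3000 bp on. Genes higher than the control (1521) became 74 with normexp, 3756 uncentred, 25 with a common spread, 796 with 4 probes and 492 from 3000 bp on. Lower ones (3139) became 168, 1632, 19, 2041 and 1613 under the same settings. Downstream minus elsewhere, 118 genes higher in TEAD4, gave 0 with normexp, 251 with loess and 38 from 3000 bp on. The 419 lower ones became 0 with normexp, 926 with loess and 814 with 4 probes. The same difference between TEAD4 and control was higher in 2043 genes and lower in 1069 in limma. It became 0 and 0 with normexp, where 525 and 496 passed an unadjusted p of 0.05. It became 3 and 1 with a common spread and 655 and 455 from 3000 bp on, and the lower genes became 690 with 4 probes. The cause was not tested, except that fewer probes, genes or samples enter some settings.

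The lower TEAD4 value of the top window turned below 0 in Skp2 with 4 probes (-0.23) and in Qk (-0.068), Zdhhc16 (-0.23) and Ilk (-0.081) from 3000 bp on, where their enriched windows are left out. Over the 38 genes named for enrichment, 267 other values moved by at most 1 SD of the duplicates and 157 by more. No paired analysis was possible because the control has 1 sample and shares 1 number with the TEAD4 samples. The limma counts have no value without a TEAD4 sample, since no residual degree of freedom is left. IP signal in the control lay at 1.84 and 2.04 times background, which limits every comparison with it.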
